A study of Mus musculus with 6 samples.

Results

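The 4 adult hemoglobin genes Hba-a1, Hba-a2, Hbb-bs and Hbb-bt and 4 other genes of red cells, Alas2, Slc4a1, Bpgm and Tent5c, were followed in the hearts of mice with and without the melanocortin-4 receptor gene Mc4r. These 8 genes were taken by symbol from the 54532 genes of the deposited expression table, each symbol stood on 1 row, and the 6 libraries were compared for their content of blood RNA. The series holds heart tissue of 3 homozygous Mc4r knockout mice (Mc4r KO) and 3 wild-type littermates (WT), all 12 weeks old and on the C57B/6/N background, with 1 library for each mouse. The study describes its mice as male, and both groups came from the mating of heterozygotes, so that they shared housing, standard chow and background. The knockout is not limited to the heart. After decapitation heart tissue was collected and rinsed in cold buffered saline to remove blood before freezing. The study's discussion names the left ventricle as the tissue that was sequenced.

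Red cells of the adult mouse carry a tetramer of alpha and beta globin chains, each with a haem group that binds oxygen. Both chains come from a pair of neighbouring gene copies, and young red cells that have lost their nucleus, the reticulocytes, still hold the RNA of these genes. Heart muscle makes its own haem protein, myoglobin (Mb), and is not known as a place of red cell formation, so that hemoglobin RNA in a heart sample is commonly read as a measure of the blood left in the tissue. In a bulk library, fewer red cells and less RNA in each red cell cannot be told apart.

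The libraries held from 14691076 to 16047003 reads on genes, and both groups covered similar ranges of depth. Values are given as FPKM, which scales the fragments of a gene by its length in kilobases and by a divisor of the library. The methods name only gene length and mapped reads, but this divisor did not simply follow the reads on genes. In WT replicates 1 and 3, with 14767929 and 16047003 reads on genes, 3 reads on 1 kb gave an FPKM of 0.213 and 0.176. The median-of-ratios factor of the deposited values was the same in each library, 1.006. Mitochondrial genes took 47.1% to 59.3% of the summed FPKM in WT and 43.0% to 46.6% in Mc4r KO. The 10 genes of cardiomyocytes summed to FPKM between 14820 and 19649 in the 6 libraries, and 9 genes of skeletal muscle to between 1.10 and 2.42, with Myh4, a myosin of fast skeletal fibres, at 0 reads in each. The sample labels give the tissue as heart, but the titles say muscle. Mc4r itself had 0 reads in 5 libraries and 2 reads in WT replicate 3, which is under the floor of 3 reads and does not check the genotype.

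The hemoglobin genes are shown first by their sequence, because their near-identical copies decide how the values can be read. All positions are on the GRCm38 (mm10) build. Hba-a1 (ENSMUSG00000069919) lies on chromosome 11 from 32283511 to 32284465 on the plus strand, and Hba-a2 (ENSMUSG00000069917) begins 12.978 kb away, from 32296489 to 32297298. Hbb-bs (ENSMUSG00000052305) lies on chromosome 7 from 103826534 to 103828096 on the minus strand, and Hbb-bt (ENSMUSG00000073940) from 103812524 to 103813996. The coding sequences of Hba-a1 and Hba-a2 have 426 bases each and differ at 1 base, and those of Hbb-bs and Hbb-bt have 441 bases each and also differ at 1 base. Exon 2, the middle one of 3 exons and entirely coding, holds no differing base within either pair. The sequence of exon 2 is given once for the alpha pair (205 bases, chr11:32283924-32284128 in Hba-a1 and chr11:32296741-32296945 in Hba-a2) and once for the beta pair (223 bases on the minus strand, chr7:103827448-103827670 in Hbb-bs and chr7:103813439-103813661 in Hbb-bt), from 5′ to 3′.
Hba-a1 and Hba-a2 exon 2: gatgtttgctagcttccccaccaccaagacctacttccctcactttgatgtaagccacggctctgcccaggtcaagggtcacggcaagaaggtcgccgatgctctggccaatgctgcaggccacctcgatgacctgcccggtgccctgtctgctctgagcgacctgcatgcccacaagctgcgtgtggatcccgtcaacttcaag
Hbb-bs and Hbb-bt exon 2: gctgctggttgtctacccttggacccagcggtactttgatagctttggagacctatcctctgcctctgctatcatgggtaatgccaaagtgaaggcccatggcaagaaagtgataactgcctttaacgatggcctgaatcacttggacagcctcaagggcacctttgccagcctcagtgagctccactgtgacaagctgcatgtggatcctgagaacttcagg
A read that falls inside one of these exons carries nothing that tells the copies apart. Of all stretches of 100 bases in the Hba-a2 transcripts, 79.5% were also found in another gene, and the share was 63.3% for Hba-a1, 49.7% for Hbb-bs and 54.8% for Hbb-bt. For Slc4a1, Bpgm and Tent5c the share was 0%. How reads were divided within the alpha pair or within the beta pair is therefore uncertain. Whether reads that match both copies were kept in the counting was not tested, and if they were left out, the sums of the pairs are too low as well, in the shares of hemoglobin and in its ratio to Mb.

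The other 4 genes lie apart from the globins and from each other. Alas2 (ENSMUSG00000025270; chromosome X, 150547375 to 150570638, plus strand) encodes the first enzyme of haem synthesis in red cell precursors. Slc4a1 (ENSMUSG00000006574; chromosome 11, 102348824 to 102366203, minus strand) encodes band 3, the anion exchanger of the red cell membrane. Bpgm (ENSMUSG00000038871; chromosome 6, 34476207 to 34505613, plus strand) encodes the mutase that makes the glycolytic intermediate which lowers the oxygen affinity of hemoglobin. Tent5c (ENSMUSG00000044468; chromosome 3, 100451628 to 100489324, minus strand) encodes a poly(A) polymerase found in red cell precursors and in cells of the B lineage. For Alas2, 15.5% of the exonic bases are covered by genes on the opposite strand, Apex2 and Mir3620, and no use of strand in the counting is given in the sources used here. Its count could therefore lack reads that overlap both genes, or hold reads of Apex2, and neither was tested. The other 7 genes have no such overlap.

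Hba-a1 and Hbb-bs were by far the most abundant of the 8 genes. Hba-a1 had an FPKM of 1816, 349 and 2545 in WT replicates 1, 2 and 3. In the Mc4r KO mice, numbered likewise, it had an FPKM of 614, 244 and 217. Hbb-bs had an FPKM of 2194, 399 and 3021 in the WT libraries and of 813, 339 and 337 in the Mc4r KO libraries, in the same order. WT replicates 1 and 3 stood far above the other 4 libraries, and WT replicate 2 fell below Mc4r KO replicate 1 for both genes, so that the groups overlapped. In every library Hbb-bs had the higher FPKM of the pair. Among all genes outside the mitochondrial chromosome, Hbb-bs ranked 5 in WT replicate 3 and 6 in WT replicate 1, but 63 in WT replicate 2. Its rank was 27 in Mc4r KO replicate 1, 104 in replicate 2 and 98 in replicate 3.

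The less abundant copies followed. Hba-a2 had an FPKM of 256, 71.1 and 220 in WT and of 110, 37.8 and 31.6 in Mc4r KO. Hbb-bt had an FPKM of 195, 30.3 and 515 in WT and of 104, 38.6 and 31.7 in Mc4r KO. For Hbb-bt the lowest of all 6 libraries was a WT library, replicate 2, and the highest was WT replicate 3, a difference of 17.0-fold between mice of 1 genotype. The FPKM ratio of Hba-a1 to Hba-a2 ran from 4.92 to 11.6 over the libraries and that of Hbb-bs to Hbb-bt from 5.87 to 13.2, with the uncertainty of reads shared between copies. The ratio of the summed alpha to the summed beta genes was steadier, at 0.867, 0.979 and 0.782 in WT and 0.789, 0.746 and 0.674 in Mc4r KO.

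Alas2 had an FPKM of 37.5, 9.21 and 43.1 in WT and of 10.5, 3.42 and 3.19 in Mc4r KO. WT replicate 2 lay between Mc4r KO replicate 1 and the other Mc4r KO libraries. Bpgm had an FPKM of 18.8, 6.48 and 17.4 in WT and of 9.01, 7.43 and 7.02 in Mc4r KO, and WT replicate 2 was the lowest of the 6 libraries. The spread of Bpgm was the smallest of the 7 genes with a fold that could be given, 2.90-fold from the highest to the lowest library. Tent5c had an FPKM of 1.72, 0.491 and 2.32 in WT and of 0.560, 0.302 and 0.235 in Mc4r KO. Slc4a1 was near the limit of detection, with 18, 10 and 75 reads in WT and 11, 3 and 5 in Mc4r KO, which correspond to an FPKM of 0.261, 0.142 and 0.900 and of 0.145, 0.0404 and 0.0637. Its value in Mc4r KO replicate 2 sits at the floor of 3 reads, so no fold over all libraries is given for it.

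**Figure D1:**
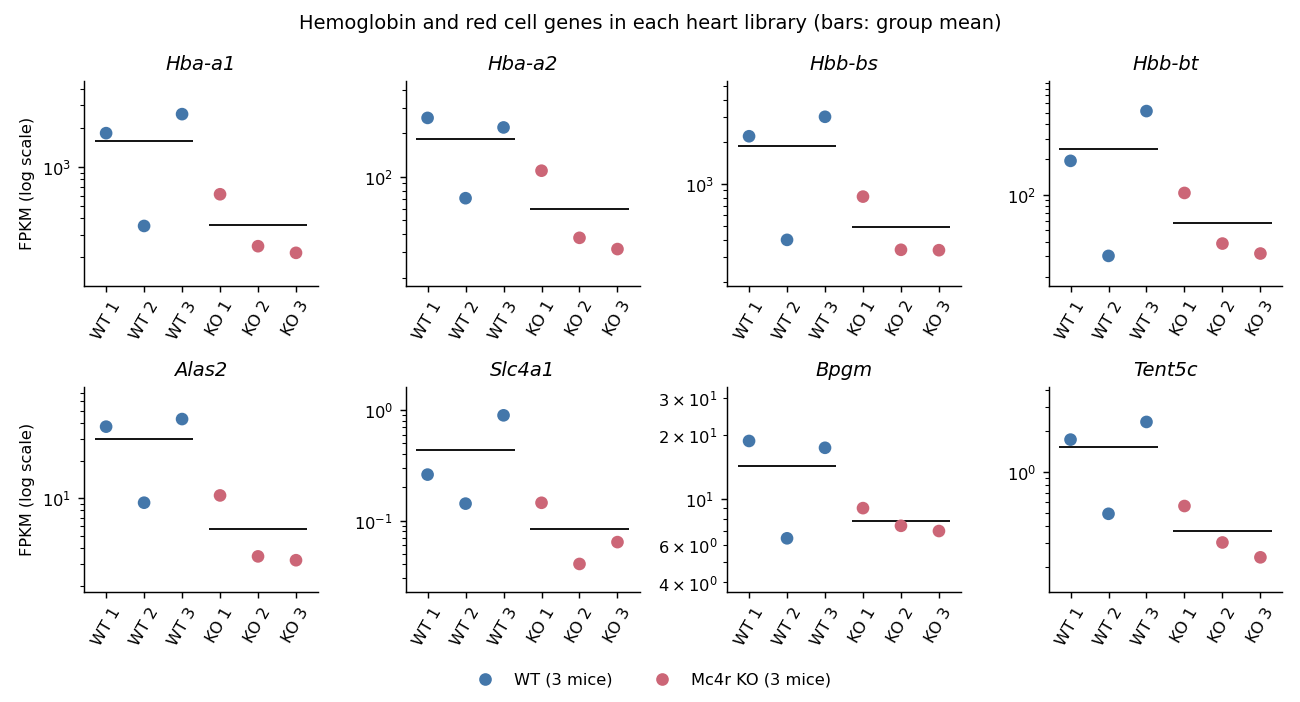
FPKM (log scale) of each of the 8 genes in the 6 libraries, with WT in blue, Mc4r KO in red and the group mean as a black bar, 3 mice a group. WT replicates 1 and 3 are the highest libraries for all 8 genes, and WT replicate 2 lies under Mc4r KO replicate 1 in each panel.

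The same order of the libraries therefore ran through the 8 genes. WT replicates 1 and 3 were the 2 highest libraries for 8 of 8 genes, and this order, which was noticed in the values and is given as a description, held for 7.64% of the 18035 genes tested. Mc4r KO replicate 1 stood above WT replicate 2 for 8 of 8 genes as well, and both features together were found for 2.88% of the genes tested. WT replicate 3 was the highest library for 6 genes and WT replicate 1 for 2, Hba-a2 and Bpgm. Mc4r KO replicate 3 was the lowest for 5 genes and WT replicate 2 for Hbb-bt and Bpgm, while Slc4a1 was lowest in Mc4r KO replicate 2. The difference between the highest and the lowest library, on the log2(FPKM + 0.1) scale, had a median of 3.09 over the 8 genes, against 0.75 over all genes tested and 0.55 over the 11297 genes whose mean FPKM was 1 or more.

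Summed over Hba-a1, Hba-a2, Hbb-bs and Hbb-bt, the FPKM was 4460, 850 and 6301 in WT and 1641, 660 and 617 in Mc4r KO, in the order of the replicate numbers. The mean was 3870 ± 2773 (SD, n = 3) in WT and 973 ± 579 (SD, n = 3) in Mc4r KO, so that the WT mean was 3.98-fold the Mc4r KO mean. Within WT alone the highest library was 7.41-fold the lowest, within Mc4r KO 2.66-fold, and over all 6 libraries 10.2-fold. The fold between the means was thus smaller than the fold between the highest and lowest WT library. A ratio of means and a range of single mice are unlike measures, however. On the log2 scale the ratio of the means, Mc4r KO over WT, was -1.99, beside a pooled SD of 1.23 per library. Without Mc4r KO replicate 1 the fold between the means was 6.06, and without any 1 of the other libraries it ran from 2.73 to 5.53.

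As a share of all reads counted on genes, the 4 hemoglobin genes took 0.331% (95% Wilson interval 0.328% to 0.334%) in WT replicate 1, 0.0636% (0.0623% to 0.0649%) in WT replicate 2 and 0.520% (0.516% to 0.523%) in WT replicate 3. The share was 0.134% (0.132% to 0.136%) in Mc4r KO replicate 1, 0.050% (0.0489% to 0.0511%) in replicate 2 and 0.0490% (0.0479% to 0.0501%) in replicate 3. These intervals cover counting error only. Counting error separated WT replicate 2 from Mc4r KO replicates 2 and 3, while the latter 2 libraries could not be told apart at this depth. Because the share of mitochondrial RNA differed between the groups, the sum was also expressed per FPKM outside the mitochondrial chromosome. It was 2.06%, 0.394% and 2.58% in WT and 0.663%, 0.249% and 0.236% in Mc4r KO, in the same order of libraries. Relative to Mb, the oxygen store of the cardiomyocyte, the hemoglobin sum was 1.15, 0.223 and 1.78 in WT and 0.364, 0.140 and 0.138 in Mc4r KO. Only in WT replicates 1 and 3 did hemoglobin RNA exceed Mb RNA per length.

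**Figure D2:**
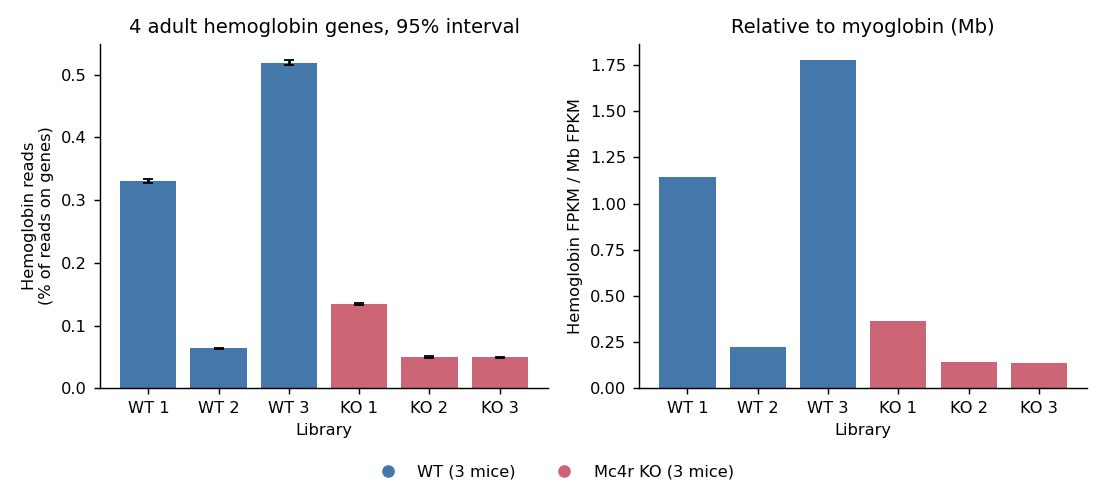
Left, reads on the 4 adult hemoglobin genes as a percent of reads on genes in each library, with the 95% Wilson interval as error bars; right, their summed FPKM divided by the FPKM of Mb. WT replicates 1 and 3 reach 0.331% and 0.520% of reads, and WT replicate 2 (0.0636%) lies between Mc4r KO replicate 1 (0.134%) and Mc4r KO replicates 2 and 3.

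The other red cell genes were also set against hemoglobin in the same library. Per 1000 FPKM of hemoglobin, Tent5c gave between 0.341 and 0.578 FPKM in the 6 libraries, a range of 1.69-fold. Alas2 gave 8.40, 10.8 and 6.84 FPKM per 1000 in WT and 6.42, 5.19 and 5.17 in Mc4r KO. The ratios of Alas2 in the WT libraries were all above those in Mc4r KO, with the nearest pair at 6.84 and 6.42. Bpgm gave 4.21, 7.62 and 2.77 FPKM per 1000 in WT and 5.49, 11.3 and 11.4 in Mc4r KO, a ratio that was higher the lower the hemoglobin sum of the library. The ratio of Slc4a1 ran from 0.0585 to 0.167 FPKM per 1000 and rests on few reads.

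The comparison of Mc4r KO with WT, which is the question of the series, was made for each gene with limma on log2(FPKM + 0.1), fitted over all 18035 genes whose mean FPKM was 0.1 or more. All 8 genes were tested, and 0 of 8 passed an adjusted p under 0.05 with an absolute log2 fold change above 0.75, where 0.460% of all genes tested passed. At an unadjusted p under 0.05, 4 of 8 passed (Hba-a1, Hba-a2, Alas2 and Tent5c), against 20.9% of all genes tested. The groups did not overlap for 0 of 8 genes, against 26.4% of all genes tested. The log2 fold change was below 0 for 8 of 8, with a median of -1.62 beside -0.011 over all genes tested.

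Alas2 had the largest log2 fold change on the log2(FPKM + 0.1) scale, with a mean FPKM of 29.9 ± 18.1 (SD, n = 3) in WT and 5.72 ± 4.18 (SD, n = 3) in Mc4r KO. By the ratio of the group means it was level with Slc4a1 (5.23 and 5.24). Its log2 fold change was -2.31 (SE 0.67, 95% interval -3.89 to -0.73), and the adjusted p of limma was 0.128. Hba-a1 had a mean of 1570 ± 1118 in WT and 358 ± 222 in Mc4r KO, with a log2 fold change of -1.88 (SE 0.75, limma adjusted p = 0.220). For Hba-a2 the means were 182 ± 97.9 and 59.9 ± 43.7, with a log2 fold change of -1.64 (SE 0.61, limma adjusted p = 0.194). For Hbb-bs, with means of 1871 ± 1340 and 496 ± 274, the log2 fold change was -1.61 (SE 0.75, limma adjusted p = 0.277). For Hbb-bt, with means of 247 ± 247 and 58.0 ± 39.8, it was -1.52 (SE 0.98, limma adjusted p = 0.421).

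Tent5c had means of 1.51 ± 0.933 in WT and 0.366 ± 0.172 in Mc4r KO, with a log2 fold change of -1.62 (SE 0.54, limma adjusted p = 0.160). Slc4a1 had means of 0.435 ± 0.408 and 0.0830 ± 0.0549 and a log2 fold change of -1.32 (SE 0.58, limma adjusted p = 0.255), which the added 0.1 FPKM makes smaller than the ratio of its means. Bpgm had means of 14.2 ± 6.74 and 7.82 ± 1.05 and the smallest difference on this scale, a log2 fold change of -0.72 (SE 0.38, limma adjusted p = 0.334). The 95% interval of Hbb-bt, the widest of the 8, ran from -3.82 to 0.78, and that of Alas2, from -3.89 to -0.73, was one of 4 that did not include 0. For 7 of 8 genes the fold between the highest and lowest WT library was larger than the fold between the group means. Alas2 was the exception (4.68-fold within WT and 5.23-fold between the means). A range of single mice does not measure the error of a difference between means.

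**Figure D3:**
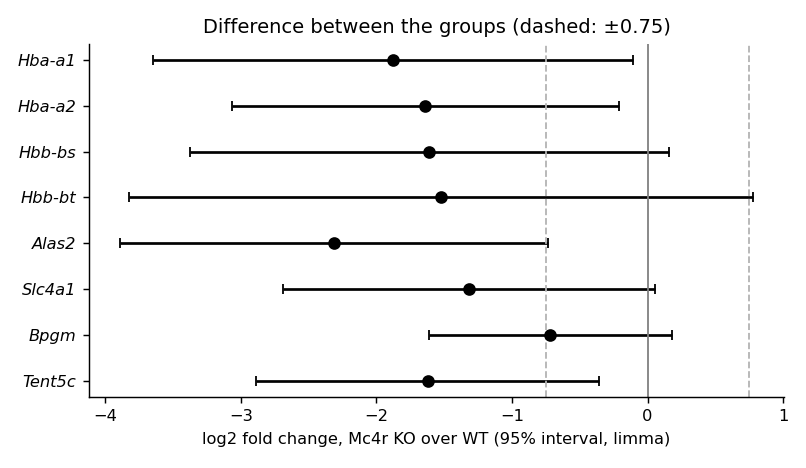
Log2 fold change of Mc4r KO over WT for the 8 genes (points) with the 95% interval from limma (bars), 3 mice a group; the dashed lines mark the size of 0.75 needed for a call. All 8 points lie below 0, from -2.31 for Alas2 to -0.72 for Bpgm, and none passed the adjusted threshold.

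The number of the 8 genes with an unadjusted p under 0.05 depended on single libraries and on the processing. It was 8 of 8 without WT replicate 2, 5 of 8 without Mc4r KO replicate 1 and 1 of 8 without WT replicate 1, WT replicate 3, Mc4r KO replicate 2 or Mc4r KO replicate 3, each left out alone. With all 6 libraries it was 7 of 8 after scaling outside the mitochondrial chromosome and in limma voom, 2 of 8 in limma without trend and 1 of 8 with array weights. In each of these fits 0 of 8 genes passed the adjusted threshold. The size of some differences depended on WT replicates as well. The log2 fold change was -0.61 for Hbb-bt, -1.05 for Hbb-bs and -0.73 for Slc4a1 without WT replicate 3. Without WT replicate 2 it was -2.65 for Hbb-bt, -2.51 for Hbb-bs and -1.21 for Bpgm, and without WT replicate 1 it was -0.45 for Bpgm.

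Genes that are switched on elsewhere in the red cell series were examined from lists. Of 7 other hemoglobin genes, the embryonic genes Hba-x, Hbb-bh1 and Hbb-y and also Hbb-bh0 and Hbb-bh2 had 0 reads in all 6 libraries. The theta genes Hbq1a and Hbq1b had at most 4 reads in any library. Embryonic hemoglobin RNA was not detectable at this depth.

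The 8 genes of haem synthesis that are in general use outside red cells did not follow the hemoglobin genes. Their summed FPKM was 130, 135 and 134 in WT and 143, 165 and 146 in Mc4r KO, and for 0 of 8 genes were WT replicates 1 and 3 the 2 highest libraries. None of the 8 was called. Mc4r KO was above WT without overlap for 4 of 8, against 14.1% of all genes tested, and below WT without overlap for 1 of 8, against 12.4%. Alas1, the form of the first enzyme used outside red cells, had an FPKM of 21.0, 19.0 and 25.5 in WT and of 36.8, 49.3 and 34.0 in Mc4r KO. Here all Mc4r KO libraries were above all WT libraries, in contrast to Alas2, with a log2 fold change of 0.86 (SE 0.17) and an adjusted p of 0.0701 in limma. Fech, which puts iron into haem, had 58.2, 56.7 and 48.4 in WT and 44.8, 47.4 and 47.9 in Mc4r KO (log2 fold change -0.22, limma adjusted p = 0.251).

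The list of 17 genes of the red cell membrane and skeleton had 11 tested and 0 called. It was dominated by genes that other cells of the heart use as well. Aqp1, a water channel also of endothelium, had an FPKM between 167 and 241, and Tmod1, which caps actin filaments also in cardiomyocytes, between 41.2 and 55.7. Their level did not follow hemoglobin, and WT replicates 1 and 3 were the highest libraries for 1 of the 11 genes.

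Among 21 genes of late red cell precursors and reticulocytes, Ahsp was not analysed here, 16 were tested and 0 were called. Mc4r KO was above WT without overlap for 2 of 16, against 14.1% of all genes tested, and below WT without overlap for 3 of 16, against 12.4%. Prdx2 and Mgst3, the 2 that were higher, had the highest levels in the list and are made in many tissues. Their FPKM was 73.4 to 87.0 and 115 to 174. Ube2l6, an ubiquitin-conjugating enzyme that is abundant in reticulocytes and was named after its values were seen, had an FPKM of 21.6, 9.49 and 20.6 in WT and of 8.49, 5.28 and 4.37 in Mc4r KO. WT replicates 1 and 3 were again the highest, but WT replicate 2 stood above Mc4r KO replicate 1, unlike in hemoglobin, so that the groups did not overlap. The log2 fold change of Ube2l6 was -1.46 (SE 0.36) with an adjusted p of 0.101 in limma. Tfrc of the same list went the other way, with an FPKM of 8.92, 4.91 and 13.0 in WT and of 17.2, 30.5 and 11.4 in Mc4r KO. Its log2 fold change was 1.12 (SE 0.43, limma adjusted p = 0.208). Of the 16 genes tested, 6 had a log2 fold change above 0 and 10 below 0, with a median of -0.12. WT replicates 1 and 3 were the 2 highest libraries for 6 of 16, against 7.64% of all genes tested. Of 8 transcription factors of the red cell series, 4 were tested and 0 were called. Lmo2, which is also made in endothelium, had an FPKM of 11.9, 9.96 and 10.7 in WT and of 7.79, 7.08 and 7.42 in Mc4r KO (log2 fold change -0.53, limma adjusted p = 0.0645).

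Mb had an FPKM of 3893, 3818 and 3550 in WT and of 4509, 4700 and 4469 in Mc4r KO, with a log2 fold change of 0.28 (SE 0.16) and an adjusted p of 0.355 in limma. Of 8 genes that clear hemoglobin and haem, 7 were tested and 0 were called. Cd163, the receptor by which macrophages take up hemoglobin bound to haptoglobin, had an FPKM of 6.08, 5.34 and 7.87 in WT and of 10.7, 6.64 and 9.07 in Mc4r KO. Hmox1, which breaks haem down, had 4.50, 6.12 and 6.30 in WT and 6.03, 4.25 and 5.52 in Mc4r KO. Neither gene followed the hemoglobin level of the libraries.

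Blood also brings white cells and platelets, and their genes were compared over the same libraries. The summed FPKM of 12 B cell genes was 21.1, 5.70 and 22.6 in WT and 6.15, 4.91 and 5.67 in Mc4r KO, and WT replicates 1 and 3 were the highest for 8 of the 9 genes tested. Ighm, the heavy chain of IgM, had an FPKM of 8.05, 2.99 and 7.29 in WT and of 3.35, 2.90 and 3.87 in Mc4r KO. Igkc, the constant part of the kappa light chain, had 7.87, 0.654 and 8.94 in WT and 1.82, 0.742 and 0.937 in Mc4r KO. All 9 B cell genes tested had a log2 fold change below 0 (median -1.43), as had 51.2% of all genes tested. Mc4r KO was below WT without overlap for 3 of 9, against 12.4% of all genes tested, and 0 were called.

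The summed FPKM of 15 platelet genes was 32.9, 21.0 and 35.8 in WT and 24.8, 19.98 and 16.2 in Mc4r KO, with WT replicates 1 and 3 the highest for 6 of 11 genes tested and 0 called. For 15 neutrophil genes the sum was 7.82, 3.02 and 19.2 in WT and 6.74, 6.71 and 8.25 in Mc4r KO. Of these Mc4r KO sums, 2.90, 4.62 and 6.06 came from Lcn2 alone, so that they do not show the level of the other neutrophil genes. S100a8 and S100a9, the subunits of the calprotectin of neutrophil cytoplasm, were highest in WT replicate 3, with an FPKM of 5.16 and 6.86. S100a9 had 3.53 in WT replicate 1 and 0.934 in WT replicate 2, while the Mc4r KO libraries had 1.23, 0.630 and 0.836. Ly6g, a surface marker of neutrophils, had 0 reads in all 6 libraries, and of the 15 genes 7 were tested. The log2 fold change was below 0 for 6 of these 7, as for 51.2% of all genes tested. WT replicates 1 and 3 were the highest for 4 of 7, against 7.64% of all genes tested. One neutrophil gene, Lcn2, went the other way and was the only gene called in any of the lists. This secreted protein, which binds iron carriers of bacteria and is also made by other cells, had an FPKM of 0.270, 0.557 and 1.01 in WT and of 2.90, 4.62 and 6.06 in Mc4r KO, with a log2 fold change of 2.78 (SE 0.43) and an adjusted p of 0.0494 in limma. Lcn2 passed the threshold under 5 of 16 alternative settings, and of the fits that left out 1 library it passed only in that without WT replicate 3 (adjusted p of limma from 0.0108 to 0.192 over the 16 settings).

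The T cell sum was 2.70, 1.08 and 5.10 in WT and 4.57, 2.11 and 1.76 in Mc4r KO, and WT replicates 1 and 3 were the highest for 1 of 8 genes tested. The monocyte sum, most of it from Lyz2, a lysozyme also of tissue macrophages, was 131, 115 and 159 in WT and 165, 138 and 127 in Mc4r KO, and WT replicates 1 and 3 were the highest for 3 of 8 genes. For cardiomyocyte genes the sum was 15685, 16113 and 14820 in WT and 18012, 19649 and 18748 in Mc4r KO, and WT replicates 1 and 3 were the 2 highest libraries for 0 of 10 genes. None of the T cell, monocyte or cardiomyocyte genes was called. B cell, neutrophil and platelet RNA thus moved in part with hemoglobin over the libraries, and the part of blood cells in any difference between the genotypes was not tested.

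**Figure D4:**
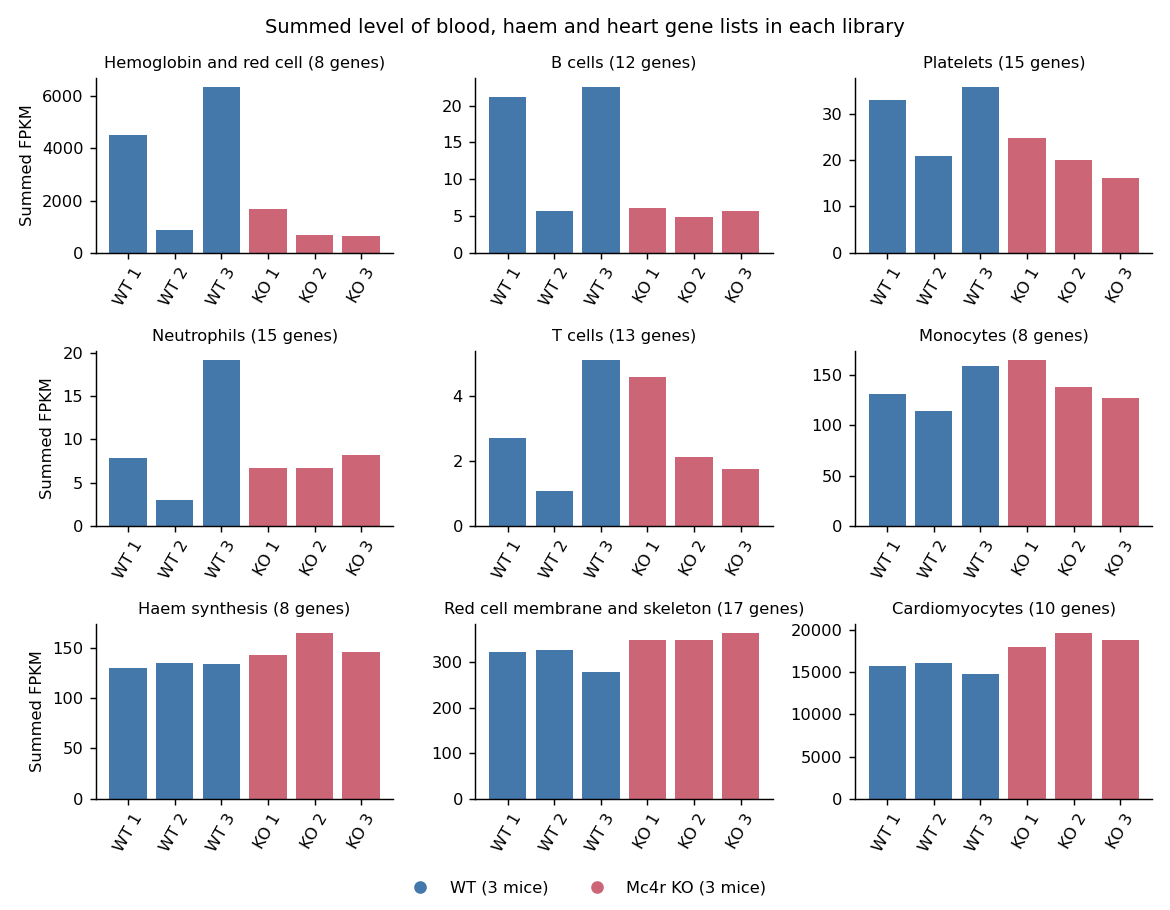
Summed FPKM of each gene list in each library (WT in blue, Mc4r KO in red; each bar is 1 mouse, and each panel has its own scale from 0). The hemoglobin and red cell, B cell and platelet sums are highest in WT replicates 1 and 3, whereas the haem synthesis, red cell membrane and cardiomyocyte sums are not. The neutrophil sums of Mc4r KO replicates 1, 2 and 3 hold an FPKM of 2.90, 4.62 and 6.06 from Lcn2 alone.

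To see which genes resembled hemoglobin most, the log2(FPKM + 0.1) of each gene whose mean FPKM was 1 or more was compared with the log2 of the hemoglobin sum over the 6 libraries by Pearson's r. This is a description over 6 points that share their libraries and the genotype difference. Among the 10 most alike genes were Slc44a2 (r = 0.980), Pf4 (0.980), Btg1 (0.978), Igkc (0.977), Cbr2 (0.977), S100a9 (0.9748), Rac2 (0.973), Cd24a (0.969) and Ptpn6 (0.969).

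These genes differed in how far they moved. Igkc and S100a9 covered 3.58 and 3.25 on the log2(FPKM + 0.1) scale, close to the hemoglobin genes, but rest on few reads. In WT replicate 2 and Mc4r KO replicates 2 and 3, Igkc had 5, 6 and 8 reads and S100a9 had 7, 5 and 7. Cd24a, a surface protein of red cell precursors and B cells, covered 1.88, with an FPKM of 2.09, 1.13 and 2.75 in WT and 1.199, 0.918 and 0.676 in Mc4r KO. Pf4, a chemokine of platelet granules, covered 1.04, with 20.2, 14.1 and 22.8 in WT and 14.8, 11.05 and 11.2 in Mc4r KO. Slc44a2, a choline transporter, covered only 0.40, with an FPKM between 10.04 and 13.3. A high r in this small set of libraries therefore did not mean a change of equal size.

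**Figure D5:**
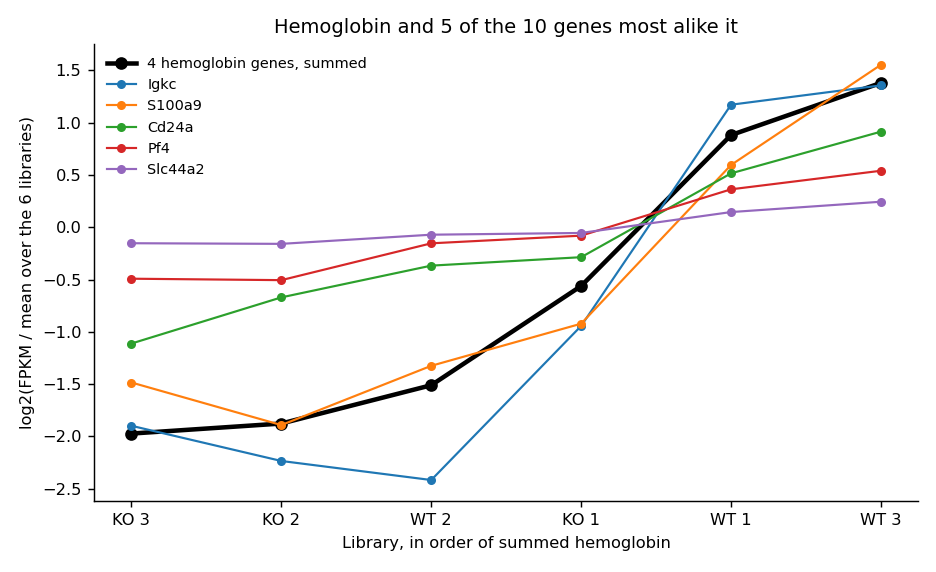
Log2 of the FPKM relative to the mean over the 6 libraries (vertical axis) for the summed hemoglobin genes (black) and 5 of the 10 genes with the most similar pattern, with the libraries ordered along the horizontal axis by their hemoglobin sum. The lines join values of separate mice and show the order only. Igkc and S100a9 cover 3.58 and 3.25 on the log2(FPKM + 0.1) scale, while Slc44a2 covers 0.40. In WT replicate 2 and Mc4r KO replicates 2 and 3, Igkc and S100a9 rest on 5 to 8 reads.

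As a description of the 8 genes, their promoters were searched in RefSeq (GRCm38.p6) for short motifs known from red cell promoters. The search covered the 250 bases before the start on both strands. Of the 8 genes, 7 were matched in the promoter table, and Slc4a1 was not. CACCC was found in 5 of 7 (the 4 hemoglobin genes and Alas2) and in 51.3% of 27025 promoters, and TATAA in the same 5 and in 23.5%. CCAAT was found in 6 of 7, all but Alas2, and in 34.5% of promoters. AGATAA, which contains the core of the GATA1 motif, was found in Alas2 and Hbb-bs, 2 of 7, and in 10.3%. Letters alone are a description and not a site of binding. The windows of Hba-a1 and Hba-a2 shared a run of 247 bases, while the longest run shared by Hbb-bs and Hbb-bt was 14 bases. The start in the GENCODE M21 annotation lies 161, 168, 149 and 132 bases before that of RefSeq for Hba-a1, Hbb-bs, Bpgm and Tent5c. Part of their windows thus lies in M21 exons. For Hba-a2 and Alas2 the distance is 3 and 42 bases, and the 130 bases just before the M21 start are given. Hba-a2 (chr11:32296359-32296488, plus strand) is an alpha globin promoter with 3 of the motifs. In Alas2 (chrX:150547245-150547374, plus strand) AGATAA is on the minus strand and reads TTATCT. The CACCC and TATAA of the Alas2 window lie outside the printed stretch. Capitals mark the motifs found within the printed stretches.
Hba-a2 promoter: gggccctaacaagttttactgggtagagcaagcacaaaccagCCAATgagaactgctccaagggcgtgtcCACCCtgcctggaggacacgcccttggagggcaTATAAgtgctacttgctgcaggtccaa
Alas2 promoter: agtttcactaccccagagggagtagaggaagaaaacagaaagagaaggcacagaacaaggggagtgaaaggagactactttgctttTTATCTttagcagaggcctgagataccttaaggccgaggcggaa
These stretches lie in windows of genes that covered 3.01 (Hba-a2) and 3.71 (Alas2) on the log2(FPKM + 0.1) scale over the 6 libraries, beside 0.75 for the median gene tested. Whether the motifs have any part in the differences between libraries was not tested.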

How the data were processed

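Polyadenylated RNA of heart tissue from 6 mice, 1 library each, was sequenced from both ends of the fragments. According to the methods and the submitters' processing notes, the reads were aligned to mm10 with HISAT2 2.0.5 and counted with featureCounts. The deposited values are FPKM by gene, beside gene length and position. Which annotation release was used, and whether counting used strand, is not given in the sources used here. Multiplied by gene length, the FPKM of each library came in whole steps (tolerance 0.05) for 100% of the values, which gave back the reads on each gene. Identifiers were matched to GENCODE M21 (99.8% found), from which exons and coding sequences were taken, and promoters came from RefSeq (GRCm38.p6).

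Because FPKM are no counts, the test was limma 3.58.1 in R 4.3.3 on log2(FPKM + 0.1) with the empirical Bayes trend, all 6 libraries, median-of-ratios scaling (the same factor, 1.006, in each library), no covariate, a mean FPKM of at least 0.1 and Benjamini-Hochberg adjustment, two-sided. Genes were called at an adjusted p under 0.05 if the absolute log2 fold change was also above 0.75. The fit was also run on simulated counts, with the same spread beyond counting error for all genes. That run does not show how the fit does for genes that vary among mice as hemoglobin did in WT. The alternatives were other pseudocounts, filters, scalings and weights, limma voom on recovered reads, the replicate number as a block, and fits without each library. The summed hemoglobin genes got no p. In a fit without 1 library, the remaining group of 2 shares the spread estimated over both groups. Python 3.11.15 with matplotlib 3.10.9 drew the figures.

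The named genes are the 8 genes, the called genes and up to 4 genes of highest mean FPKM of each list, and the 10 genes most like hemoglobin. Any other gene is marked where it appears. The 8 genes, the lists and the tests were chosen with earlier results of these data known. Some results for single genes of the lists are not reported here.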

Additional observations from a re-analysis of the deposited data

How the results depend on the processing

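Under all 16 alternatives 0 of the 8 genes were called, and each log2 fold change stayed below 0 wherever the gene was tested (15 alternatives for Slc4a1 and Tent5c, which a mean FPKM of at least 1 leaves out, and 16 for the others). Over these alternatives the log2 fold change ran from -2.75 to -1.30 for Hba-a1, -2.22 to -1.29 for Hba-a2, -2.51 to -1.02 for Hbb-bs, -2.65 to -0.61 for Hbb-bt, -3.02 to -1.86 for Alas2, -2.12 to -0.37 for Slc4a1, -1.21 to -0.43 for Bpgm and -2.23 to -0.81 for Tent5c. The lowest adjusted p of any of them was 0.0534, for Alas2 in limma voom on recovered reads. The log2 of the fold of summed hemoglobin, -1.99, ran from -2.60 to -1.45 with 1 library left out, was -2.13 when scaled outside the mitochondrial chromosome and -1.97 as a share of reads. The number of called genes among all tested, 83, moved more. It was 44 with a pseudocount of 1, 22 with no filter on low values, 147 with a mean FPKM of at least 1, 49 with quantile normalization, 21 without trend, 436 with array weights and 324 with voom. Scaling to the FPKM outside the mitochondrial chromosome gave 41, with 16 higher and 25 lower in Mc4r KO instead of 57 and 26, and moved the median of all genes to -0.19. Leaving out 1 library gave from 7 to 726 calls, the latter without WT replicate 3. Between same-numbered mice, the deviations from the group mean had correlations of -0.14, 0.0074 and -0.082. Deviations within a group of 3 sum to 0, so these values cannot show whether the replicate numbers pair the mice. With the replicate block 11 genes and 0 of the 8 were called. The causes of these moves were not tested. With 3 mice a group, hemoglobin spanned 7.41-fold among the WT mice, and Slc4a1 rests on 3 to 75 reads a library.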
